A study of Mus musculus with 9 samples.

Results

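The kidney of knock-in mice treated with Gui-qi-yi-shen granules (GQYS) was compared with the kidney of healthy control mice, gene by gene, to see which transcripts still differed from control after the treatment. The control group, WT, was made up of C57/BL6 mice that were given saline by gavage. Animals of the GQYS group carried Itgam-IRES-hCD89, a knock-in that places human CD89 behind the mouse Itgam gene, and were gavaged with the granules, a Chinese herbal preparation, every day for 5 months. The other group, IgAN, carried the same knock-in and was given saline. Its sample titles, like those of WT, call it untreated. Each group held 3 bulk RNA sequencing libraries, so 6 of the 9 libraries of the series enter the comparison, and the IgAN libraries are given beside them. The GQYS and WT groups differ in both genotype and gavage, and these cannot be told apart in the comparison, because no WT mice received GQYS. Age and sex are not in the labels, which also do not state whether the libraries within a group represent different animals. All p-values therefore measure the spread between these libraries, which may be partly technical. The genes compared were the 11617 of 26139 in the table whose value reached at least 1 FPKM (fragments scaled to transcript length and to the reads of the library) in at least 3 of the 9 libraries.

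IgA nephropathy is a disease of the glomerulus, the filter of the kidney, in which IgA-containing immune complexes are deposited in the mesangium, the tissue between the capillary loops. CD89 is a human Fc receptor for IgA that mice lack, and human CD89 on myeloid cells can bind and shed complexes with IgA. Itgam encodes CD11b, an integrin subunit of neutrophils, monocytes and macrophages, so a receptor expressed from this locus is made in myeloid cells. Most RNA of a whole kidney comes from tubule cells, and a bulk measurement cannot tell fewer cells of a type from less RNA per cell.

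The level of Itgam, where the knock-in was made, was low in both groups. Its level was 0.340, 0.716 and 0.428 FPKM in the WT libraries and 0.0828, 0.0283 and 0.143 FPKM in the GQYS libraries, so the groups did not overlap. The IgAN libraries lay between 0.172 and 0.433 FPKM. The mean was 0.495 ± 0.197 FPKM in WT and 0.0848 ± 0.0574 FPKM in GQYS (SD, n = 3 each), with a 2-sided exact permutation p of 0.1, the smallest that 3 against 3 libraries allow. These values rest on 56 to 128 reads per library in WT and on 5 to 21 in GQYS. Of 20 macrophage markers, 18 could be tested and their median log2 difference was -0.04, with a summed level of 234 to 372 FPKM in WT and 263 to 323 FPKM in GQYS. Without WT replicate 3 that median was -0.22, with 5 genes lower at an unadjusted p below 0.05, as were 149 of all 11617 genes. It was -0.40 without WT replicates 1 and 3. The table held 0 rows for the human gene under the names FCAR or CD89, so the transgene does not check the labels.

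The 6 libraries carried markers of kidney epithelium. Umod of the thick ascending limb was between 942 and 1628 FPKM, the proximal phosphate transporter Slc34a1 between 1437 and 1889 FPKM and the water channel Aqp2 of the collecting duct between 74.4 and 106 FPKM. The Y-linked gene Ddx3y was between 5.21 and 10.1 FPKM in all 9 libraries. The libraries held 30564947 to 38161564 reads assigned to genes. WT replicate 1 stood apart: mitochondrially encoded genes took 18.6% of its reads against 7.81% to 13.3% in the other 8 libraries, and on the first principal component, with 41.9% of the variance, it lay at -28.1 with IgAN replicate 1 at -23.8 beside it. Many of the results are therefore also given without it. Of the first 3 components, component 3, with 10.5% of the variance, was the one on which the WT libraries (-12.2 to -6.27) lay apart from the GQYS libraries (6.22 to 11.8).

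No gene differed between GQYS and WT kidney past the threshold. With limma on log2(FPKM + 1) and Benjamini-Hochberg adjustment, 0 of 11617 genes (0%) had an adjusted p below 0.05, and the smallest adjusted p was 0.126, for Depp1, followed by 0.282, for A4galt. At an unadjusted p below 0.05 there were 515 genes (4.43%), of which 387 (3.33%) had higher and 128 (1.1%) lower values in GQYS. Voom on the reads recovered from the FPKM steps likewise called 0 genes and gave 514 at an unadjusted p below 0.05. The 3 GQYS values lay entirely outside the 3 WT values for 1132 genes (9.74%), above them for 829 (7.14%) and below them for 303 (2.61%). With 3 against 3 libraries the smallest 2-sided exact permutation p is 0.1, so separate ranges alone do not establish a difference. Neither 9.74% for separate ranges nor 4.43% for the unadjusted p exceeds the share that these levels, 0.1 and 0.05, allow without any difference. The same fit called 41 genes (0.353%) in IgAN against WT and placed 1202 (10.3%) at an unadjusted p below 0.05. The number of calls in one comparison does not show that it differs from the other, and both use the same WT libraries.

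The precision of the comparison set how large a remaining difference could be. The 95% interval of the log2 difference had a median width to either side of 0.32. For 11342 genes (97.6%) the whole interval lay within a 2-fold difference in FPKM + 1 either way, and for 9302 (80.1%) within 1.5-fold. The estimate itself exceeded 1 in size on the log2 scale for 23 genes, 9 higher and 14 lower in GQYS, against 75 genes in IgAN against WT. Fold changes on the log2(FPKM + 1) scale understate the change of genes with low FPKM. These shares therefore do not bound the fold change in FPKM of such genes.

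**Figure D1:**
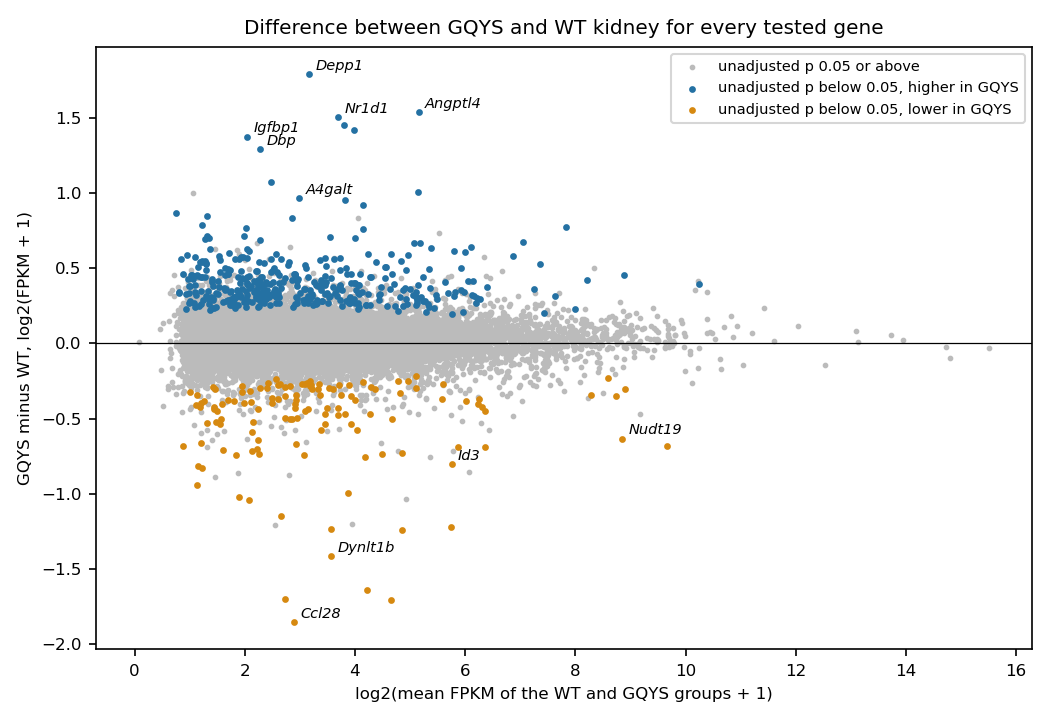
Each point is 1 of the 11617 tested genes, with log2(mean FPKM of the WT and GQYS groups + 1) on the horizontal axis and the log2(FPKM + 1) difference GQYS minus WT on the vertical axis. Blue and orange points mark the 387 genes with higher and the 128 with lower values in GQYS at an unadjusted p below 0.05, none of which passed after adjustment, and Depp1 has the highest difference at 1.79.

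The direction of the small differences rested on WT replicate 1. With all 9 libraries, 75.1% of the 515 genes at an unadjusted p below 0.05 were higher in GQYS. Without WT replicate 1 there were 1081 such genes, 549 higher and 532 lower, so 50.8% were higher. Scaling mattered as well: after quantile normalization the split was 309 higher and 216 lower (58.9% higher), and after median-of-ratios scaling 292 and 194 (60.1% higher). The excess of higher values was thus absent without that library.

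**Figure D2:**
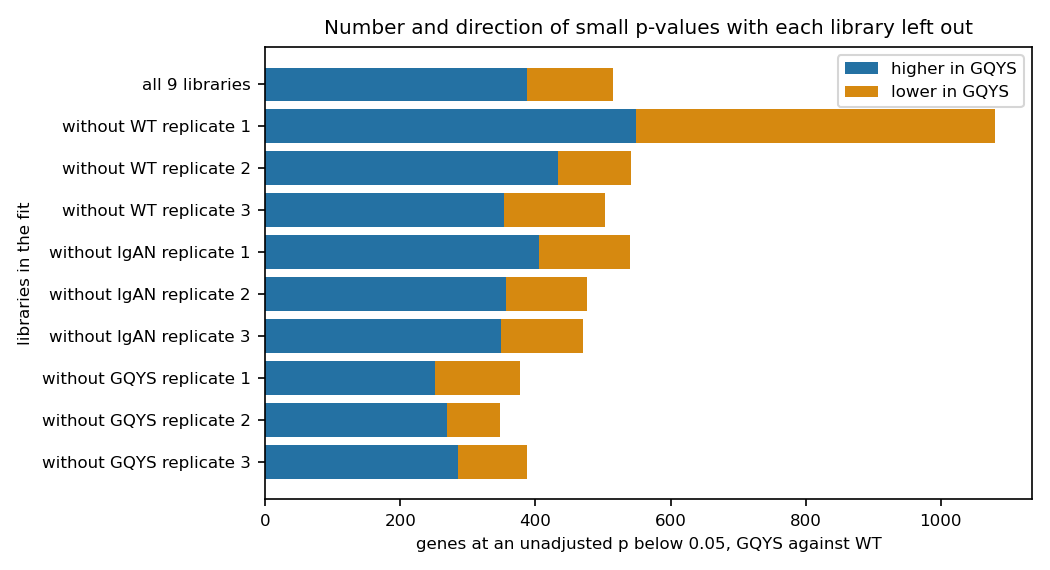
Bars show the number of genes at an unadjusted p below 0.05 in GQYS against WT when all 9 libraries are in the fit and when each is left out, split into genes higher (blue) and lower (orange) in GQYS. Leaving out WT replicate 1 raised the number from 515 to 1081 and made the directions nearly equal, at 549 and 532.

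Depp1 and Angptl4, both among the 3 genes with the smallest p, are described first, followed by the list of fatty acid oxidation. In fasting, low insulin signalling lets FoxO factors enter the nucleus, and free fatty acids activate PPARs, which turn on fatty acid oxidation. Not every metabolic gene had higher values in GQYS. Pck1, an enzyme of gluconeogenesis, was lower (log2 difference -0.68). Depp1, a FoxO target linked to autophagy, had the smallest p of all genes. Its level was 2.24, 3.44 and 3.17 FPKM in the WT libraries and 15.1, 8.28 and 15.6 FPKM in the GQYS libraries. All 3 GQYS values were above all WT values, and the 3 IgAN values of 26.5, 25.5 and 21.5 FPKM were higher still. The mean was 2.95 ± 0.627 FPKM in WT and 13.0 ± 4.08 FPKM in GQYS (SD, n = 3 each), a log2 difference of 1.79 (95% interval 1.30 to 2.28, limma adjusted p = 0.126). IgAN against WT gave 2.70 for Depp1 (adjusted p = 0.000773, limma), and GQYS against IgAN gave -0.91 (adjusted p = 0.167). Without GQYS replicate 2, which had the lowest of the 3 GQYS values, Depp1 was called in GQYS against WT at 2.06 with an adjusted p of 0.00590. Without WT replicate 1 its difference was 1.65.

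Angptl4, a secreted inhibitor of lipoprotein lipase that fasting and PPARs induce, came next but one by p. It stood at 20.3, 18.1 and 13.0 FPKM in WT and at 38.9, 69.3 and 48.4 FPKM in GQYS, and the groups did not overlap. The IgAN values were 81.8, 50.5 and 63.7 FPKM, a range that overlapped with GQYS. The log2 difference from WT was 1.54 in GQYS (95% interval 0.99 to 2.08, limma adjusted p = 0.317) and 1.87 in IgAN (adjusted p = 0.0136). GQYS against IgAN differed by -0.33 (adjusted p = 0.740, limma).

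Pdk4, a kinase that shuts off pyruvate dehydrogenase when fat is burned, was at 5.33, 7.88 and 4.57 FPKM in WT and at 14.6, 34.9 and 10.4 FPKM in GQYS. Its log2 difference of 1.45 had an adjusted p of 0.875 (limma), and its IgAN values of 16, 16.3 and 39.9 FPKM covered most of the GQYS range. Cyp4a14, a fatty acid hydroxylase and PPAR-alpha target, was at 7.41, 12.3 and 6.35 FPKM in WT and at 14.2, 17.1 and 20.8 FPKM in GQYS (log2 difference 0.96). Both genes had GQYS values wholly above WT. Of the 34 tested genes that burn fatty acids or answer to PPAR-alpha, 6 were at an unadjusted p below 0.05 and higher in GQYS, as were 3.33% of all genes, among them Angptl4, Cyp4a14, Pdk4 and the acyl-CoA thioesterases Acot1 and Acot2, closely similar genes whose reads the counting could split. The median log2 difference of the 34 was 0.12, against 0.03 over all tested genes, and 0.05 without WT replicate 1. There 6 members were higher and 2 lower at an unadjusted p below 0.05, against 549 and 532 of all 11617 genes.

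Among genes of insulin-like growth factor (IGF) signalling, Igfbp1 and Igfbp3 had the smallest p. Igfbp1, an IGF binding protein induced by FoxO factors when insulin is low, was at 0.542, 1.84 and 1.51 FPKM in WT and at 5.69, 3.11 and 5.98 FPKM in GQYS, and its IgAN values ran from 3.26 to 9.68 FPKM. The log2 difference of GQYS from WT was 1.37 (95% interval 0.59 to 2.16, limma adjusted p = 0.678). Igfbp3, the main IGF carrier of plasma, was at 49.7, 50.1 and 47.3 FPKM in WT and at 65.4, 73.5 and 71.1 FPKM in GQYS, a log2 difference of 0.50 (limma adjusted p = 0.893). Its IgAN values lay on the other side of WT, at 26.5, 37.2 and 43.2 FPKM, and GQYS against IgAN passed the threshold (log2 difference 0.98, adjusted p = 0.0481, limma). Of 30 tested genes of IGF and PI3K-AKT signalling, 3 were at an unadjusted p below 0.05 and higher in GQYS, as were 3.33% of all genes: Igfbp1, Igfbp3 and the p53 and FoxO target Sesn1. The median of the 30 was 0.09, and -0.06 without WT replicate 1. Of the 30, 22 were above 0, and the lowest was Ddit4, at -0.58.

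Clock genes included both higher and lower values. The circadian clock is a feedback loop in which CLOCK and BMAL1 bind E-box elements and switch on the Per, Cry and Nr1d genes and outputs such as Dbp, whose products then restrain the loop. The hour of tissue collection is not in the labels, so a shift in hour between groups cannot be told apart from a group difference. The RefSeq promoters of Dbp, Nr1d1 and Cry1, from 250 bases before to 50 bases after the annotated start on GRCm38.p6, are printed because these are the clock genes with the smallest p in each direction. Capitals mark the E-box CACGTG, which reads the same on both strands.
Dbp, chr7:45704997-45705296, plus strand: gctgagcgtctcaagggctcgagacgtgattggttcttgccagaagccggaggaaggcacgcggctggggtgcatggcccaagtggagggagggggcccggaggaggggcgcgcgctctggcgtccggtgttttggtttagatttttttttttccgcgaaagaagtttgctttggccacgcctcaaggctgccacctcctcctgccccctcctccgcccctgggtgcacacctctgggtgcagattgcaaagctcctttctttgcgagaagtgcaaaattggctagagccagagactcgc
Nr1d1, chr11:98775328-98775627, minus strand: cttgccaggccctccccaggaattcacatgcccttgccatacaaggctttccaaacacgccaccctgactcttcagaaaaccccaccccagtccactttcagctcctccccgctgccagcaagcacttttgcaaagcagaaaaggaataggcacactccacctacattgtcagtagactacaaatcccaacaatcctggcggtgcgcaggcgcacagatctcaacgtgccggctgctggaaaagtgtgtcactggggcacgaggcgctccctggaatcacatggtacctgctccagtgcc
Cry1, chr10:85185005-85185304, minus strand: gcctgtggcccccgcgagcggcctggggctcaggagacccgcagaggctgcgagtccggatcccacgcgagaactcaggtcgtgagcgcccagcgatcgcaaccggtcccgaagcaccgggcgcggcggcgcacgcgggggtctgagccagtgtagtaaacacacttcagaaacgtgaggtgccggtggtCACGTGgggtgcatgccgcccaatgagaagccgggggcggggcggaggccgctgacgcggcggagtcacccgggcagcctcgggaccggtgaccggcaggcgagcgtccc
The E-box was found once in the Cry1 window, from base 191, and its letters are not in the other two windows. It was present in 2349 of 32851 mouse promoter windows of this length (7.15%), and in 5 of the 16 genes of the 21-gene clock list that had a window.

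Dbp, a transcription factor of the clock output, was at 2.39, 1.92 and 1.15 FPKM in WT and at 5.16, 7.89 and 4.67 FPKM in GQYS. The IgAN values of 1.1, 1.78 and 2.41 FPKM overlapped with WT and lay below GQYS. The log2 difference of GQYS was 1.29 from WT (95% interval 0.76 to 1.82, limma adjusted p = 0.481) and 1.32 from IgAN (adjusted p = 0.0776). Nr1d1, which encodes the repressor REV-ERB alpha, was at 5.71, 7.09 and 4.48 FPKM in WT and at 22.1, 17.2 and 15.2 FPKM in GQYS, a log2 difference of 1.51 (95% interval 0.75 to 2.26, adjusted p = 0.673). Of its IgAN values, 5.36 FPKM lay within WT and 15.6 and 15.5 FPKM lay at the GQYS level. Cry1, a repressor of the loop, went the other way, at 1.78, 1.89 and 2.64 FPKM in WT and 1.25, 1.30 and 1.34 FPKM in GQYS (log2 difference -0.42, limma adjusted p = 0.999).

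Cry2 (log2 difference 0.44) and Nr1d2 (0.71) completed the clock genes at an unadjusted p below 0.05, 4 higher and 1 lower of 19 tested, where 3.33% of all genes were higher and 1.1% lower. The median of the 19 was -0.04, and 9 were above 0. Bmal1, the activator of the loop, had overlapping values of 1.06, 1.57 and 1.91 FPKM in WT and 1.2, 0.914 and 1.07 FPKM in GQYS. Per1 and Per2 each had a log2 difference of -0.23 with overlapping groups.

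The other genes with higher values in GQYS and the smallest p-values had varied roles. A4galt, the synthase of the glycosphingolipid globotriaosylceramide, was at 3.70, 5.56 and 4.01 FPKM in WT and at 9.93, 9.79 and 8.73 FPKM in GQYS. The IgAN values of 8.29, 6.92 and 6.89 FPKM lay between, and the log2 difference of GQYS from WT was 0.97 (95% interval 0.65 to 1.28, limma adjusted p = 0.282). Ipmk, an inositol phosphate kinase, was at 11.7, 11.2 and 13.5 FPKM in WT and at 20.3, 24.1 and 19.4 FPKM in GQYS (log2 difference 0.76). Rhebl1, a small GTPase related to the mTORC1 activator RHEB, was at 2.84, 3.38 and 1.69 FPKM in WT and at 5.81, 7.79 and 6.04 FPKM in GQYS (log2 difference 1.07).

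The other genes of the 10 were near 1 FPKM, where the pseudocount shrinks a difference. The actin regulator Eps8l1 (log2 difference 0.85), the Polycomb subunit Cbx2 (0.58), the matrix protein gene Hmcn2 (0.46) and the Mediator subunit Med18 (0.63) each had GQYS values above all WT values. For Hmcn2 the WT values of 0.539, 0.543 and 0.562 FPKM and the IgAN values of 0.440 to 0.597 FPKM were alike, while GQYS was at 1.17, 1.07 and 1.15 FPKM. Cbx2 was at 0.620, 0.780 and 0.779 FPKM in WT, at 1.06 to 1.18 FPKM in IgAN and at 1.48, 1.67 and 1.57 FPKM in GQYS. The adjusted p of these 10 genes ran from 0.126 to 0.669 (limma).

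**Figure D3:**
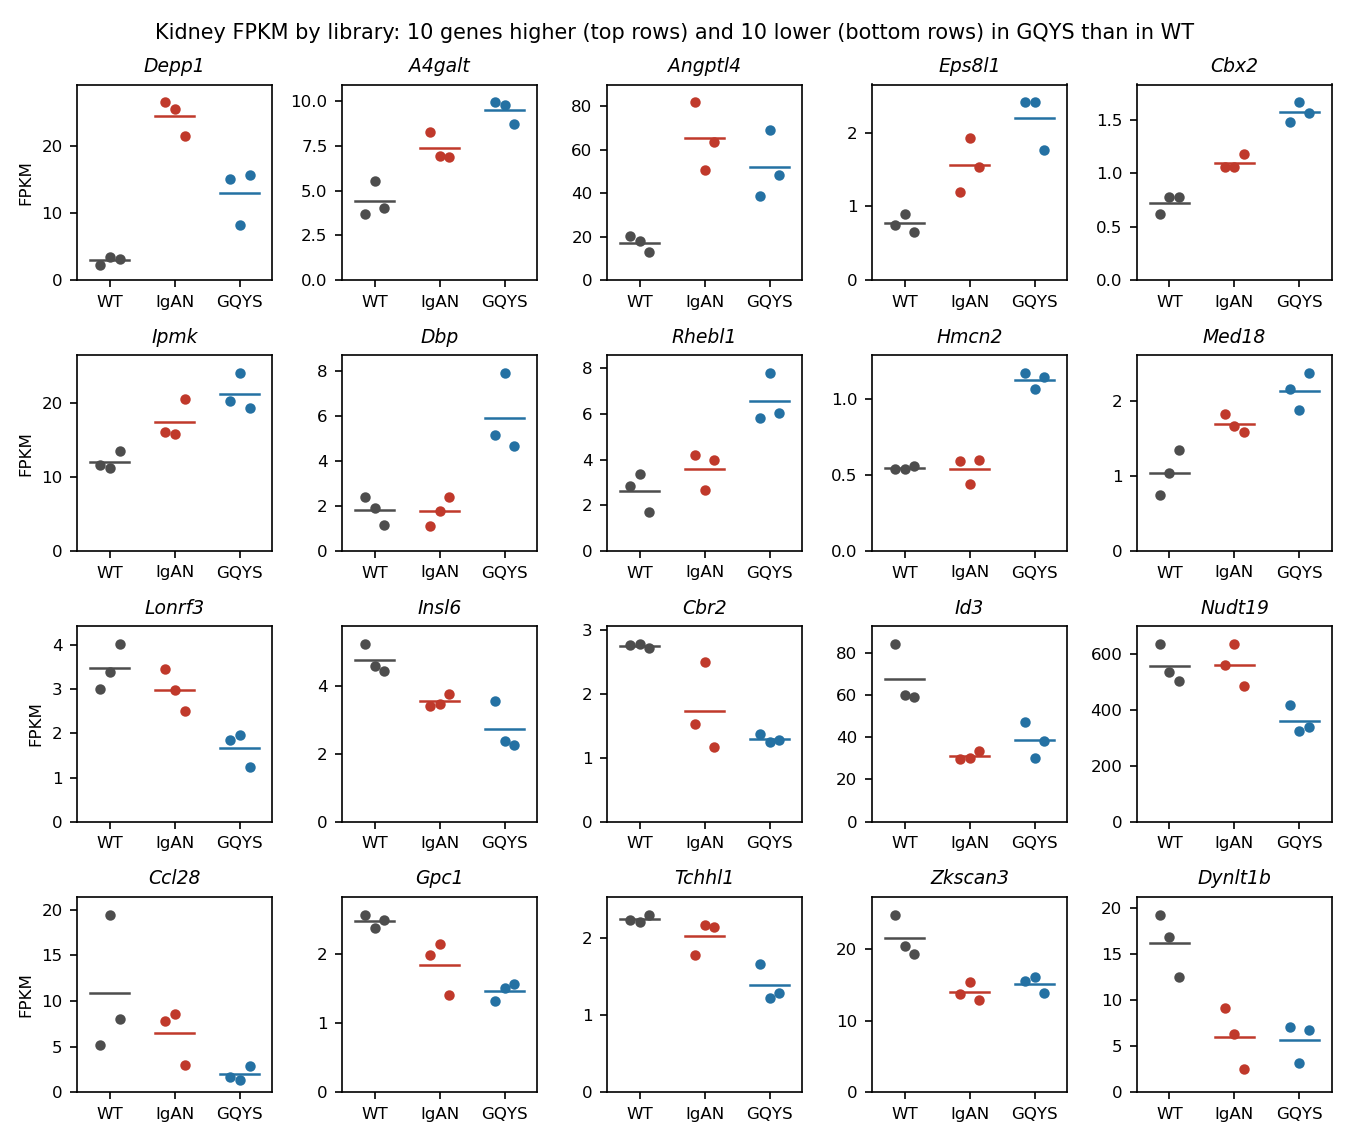
Each panel gives the FPKM of 1 gene in the 3 WT, 3 IgAN and 3 GQYS libraries, with a line at the group mean, for the 10 genes with higher (top 2 rows) and the 10 with lower values (bottom 2 rows) in GQYS that had the smallest p and separate GQYS and WT ranges. For Dbp and Hmcn2 the IgAN points lie at the WT level, and for Depp1 they lie above GQYS, at 21.5 to 26.5 FPKM.

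Among the 10 genes with lower values in GQYS and the smallest p, Id3 was the one that also passed the threshold in IgAN against WT. Id3 and Id1 encode inhibitors of basic helix-loop-helix factors and are direct targets of BMP signalling. Id3 was at 84.2, 60.0 and 58.9 FPKM in WT and at 47.2, 30.2 and 38.2 FPKM in GQYS, with IgAN at 29.8, 30.2 and 33.3 FPKM. WT lay above both other groups, and the log2 difference was -0.80 in GQYS (95% interval -1.2 to -0.40, limma adjusted p = 0.673) and -1.08 in IgAN (adjusted p = 0.0409). Without WT replicate 1, which had the highest level, the difference of GQYS from WT was -0.63. Id1 was at 30.3, 19.2 and 16.2 FPKM in WT and at 17.7, 9.33 and 10.8 FPKM in GQYS, with 1 GQYS value inside the WT range.

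Other genes of the pathway had higher values. Bmp6, a BMP ligand, was at 12.0, 13.7 and 16.7 FPKM in WT and at 21.2, 24.2 and 19.8 FPKM in GQYS, with IgAN between 17.6 and 22 FPKM (log2 difference of GQYS from WT 0.59, limma adjusted p = 0.673). Tgif1, a repressor of TGF-beta target genes, was at 2.19, 2.31 and 1.83 FPKM in WT and at 4.70, 3.11 and 3.22 FPKM in GQYS, and its difference in IgAN passed the threshold (0.95, adjusted p = 0.0343, limma). Together with Bmp4, 3 higher and 2 lower genes of the 29 tested TGF-beta and BMP genes were at an unadjusted p below 0.05, where 3.33% of all genes were higher and 1.1% lower. The median of the 29 was -0.01. Without WT replicate 1 the counts were 3 higher and 6 lower, against 549 and 532 of all 11617 genes.

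Ccl28, a mucosal chemokine that draws IgA-secreting plasma cells, had the lowest log2 difference of all named genes. It was at 5.18, 19.5 and 8 FPKM in WT and at 1.71, 1.32 and 2.86 FPKM in GQYS. The IgAN values of 7.82, 8.53 and 3.03 FPKM overlapped with WT and lay above GQYS. The log2 difference of GQYS was -1.85 from WT (95% interval -2.84 to -0.86, limma adjusted p = 0.673) and -1.27 from IgAN (adjusted p = 0.349). The spread within WT was wide, and WT replicate 2 alone stood at 19.5 FPKM. Of the 15 B and plasma cell markers, 5 could be tested, 0 were at an unadjusted p below 0.05, and their sum was 67.7 to 96.3 FPKM in WT and 64.0 to 114 FPKM in GQYS.

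Nudt19, a peroxisomal hydrolase of coenzyme A that is abundant in kidney, had the highest expression of the 20 genes. It was at 634, 537 and 502 FPKM in WT and at 416, 324 and 339 FPKM in GQYS, without overlap. The IgAN values of 560, 636 and 484 FPKM were at the WT level, and the log2 difference of GQYS was -0.63 from WT (95% interval -0.96 to -0.30, limma adjusted p = 0.673) and -0.64 from IgAN (adjusted p = 0.152). Dynlt1b, a dynein light chain, was at 19.2, 16.8 and 12.5 FPKM in WT and at 7.04, 3.17 and 6.71 FPKM in GQYS, but it has near-identical copies among which reads can be divided. Zkscan3, a zinc finger factor that represses autophagy genes, was at 24.8, 20.4 and 19.4 FPKM in WT, at 13.7, 15.3 and 12.9 FPKM in IgAN and at 15.5, 16.2 and 13.9 FPKM in GQYS.

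The remaining genes of the 10 were below 6 FPKM. Cbr2, a carbonyl reductase, was at 2.77, 2.78 and 2.71 FPKM in WT and at 1.37, 1.24 and 1.28 FPKM in GQYS, with IgAN spread from 1.17 to 2.5 FPKM. Lonrf3, a RING finger gene (log2 difference -0.74), the relaxin-like peptide gene Insl6 (-0.64), the glypican Gpc1 (-0.50) and Tchhl1 (-0.45) had GQYS values below all WT values. The adjusted p of the 10 genes ran from 0.669 to 0.708 (limma), and 2 predicted genes with smaller p were passed over.

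The 41 genes called in IgAN against WT were next placed on the scale of GQYS against WT. Both comparisons use the same WT libraries, and the 41 were chosen with them, so a shared direction is no independent result. None of the 41 passed the threshold in GQYS against WT, in which 0% of all genes did, and 8 were at an unadjusted p below 0.05, where 4.43% of all genes were. GQYS and WT ranges lay apart for 12 of the 41, as for 9.74% of all genes. The 95% interval of GQYS minus WT held 0 for 33 of them and lay within -1 and 1 on the log2(FPKM + 1) scale for 37. The 35 genes higher in IgAN had a median log2 difference from WT of 1.17 in IgAN and 0.19 in GQYS (range -0.31 to 1.79). The 6 lower genes had -0.85 and -0.20 (range -0.80 to 0.04). Of the 41, 6 reached 1 FPKM in fewer than 3 of the 6 WT and GQYS libraries and so were tested only through IgAN (Casp4, Chac1, Maff, Retnlg, Socs3 and Zbtb16). Nothing is read from how near their GQYS values lie to WT. The counts and medians over the 41 include these genes, and the pseudocount pulls their differences toward 0. Those tallies therefore do not measure how near the 41 lie to WT.

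Inflammatory genes among the 41 had GQYS values within, above or partly below the WT range. S100a9, a subunit of the neutrophil protein calprotectin, was at 1.63, 1.80 and 0.679 FPKM in WT, at 16.5, 16.7 and 13.5 FPKM in IgAN and at 0.911, 1.52 and 1.22 FPKM in GQYS. The GQYS values lay within the WT range, with a log2 difference of -0.07 (95% interval -0.51 to 0.37), and GQYS against IgAN passed the threshold (-2.91, adjusted p = 0.000269, limma). Csf1, the macrophage growth factor, was at 2.64, 2.58 and 2.37 FPKM in WT and at 1.85, 2.09 and 2.52 FPKM in GQYS, against 6.46 to 7.6 FPKM in IgAN. Osmr, the oncostatin M receptor, had GQYS values wholly above WT. It was at 1.81, 2.25 and 1.61 FPKM in WT and at 2.32, 2.52 and 2.36 FPKM in GQYS (log2 difference 0.24), with IgAN at 4.59 to 8.46 FPKM. Casp4, an inflammatory caspase, differed from WT by 0.20 and Maff, a stress-induced bZIP factor, by 0.45, both with separate ranges. Casp4 and Maff were tested only through IgAN, so nothing is read from these differences. S100a8, the partner of S100a9, differed by 0.43 with overlap, and its interval of -0.20 to 1.07 was wide.

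Other genes of the set were well expressed in all groups. Herpud1, a factor of protein degradation at the endoplasmic reticulum, was at 100 to 115 FPKM in 2 WT libraries and 83.6 FPKM in the other, and at 126, 114 and 95.9 FPKM in GQYS, with IgAN at 236 to 261 FPKM. Tcf21, a factor of stroma and podocytes that was lower in IgAN (6.23 to 9.44 FPKM), was at 24.7, 20.3 and 18.2 FPKM in WT and at 18.4, 15.9 and 20.9 FPKM in GQYS. The chemokine gene Ccl2 was low, at 2.79, 1.49 and 0.321 FPKM in WT and at 1.07, 0.691 and 0.871 FPKM in GQYS. Its interval of GQYS minus WT was wide, from -0.98 to 0.36 on the log2(FPKM + 1) scale. At such levels this interval does not bound the fold change in FPKM.

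The 8 genes at an unadjusted p below 0.05 were Depp1, Angptl4, Id3, Tgif1, Plat, Pim1, Ccdc68 and Cib2. Plat, the tissue plasminogen activator, was at 20.7, 18.1 and 18.1 FPKM in WT and at 25.2, 26.4 and 26.2 FPKM in GQYS, with IgAN at 26.8 to 34.4 FPKM. Its log2 difference from WT was 0.43 in GQYS (95% interval 0.18 to 0.68, limma adjusted p = 0.678) and 0.66 in IgAN (adjusted p = 0.0447). Pim1, a kinase induced by cytokines, was at 2.65, 3.03 and 1.99 FPKM in WT and at 4.55, 3.17 and 3.35 FPKM in GQYS (log2 difference 0.40).

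**Figure D4:**
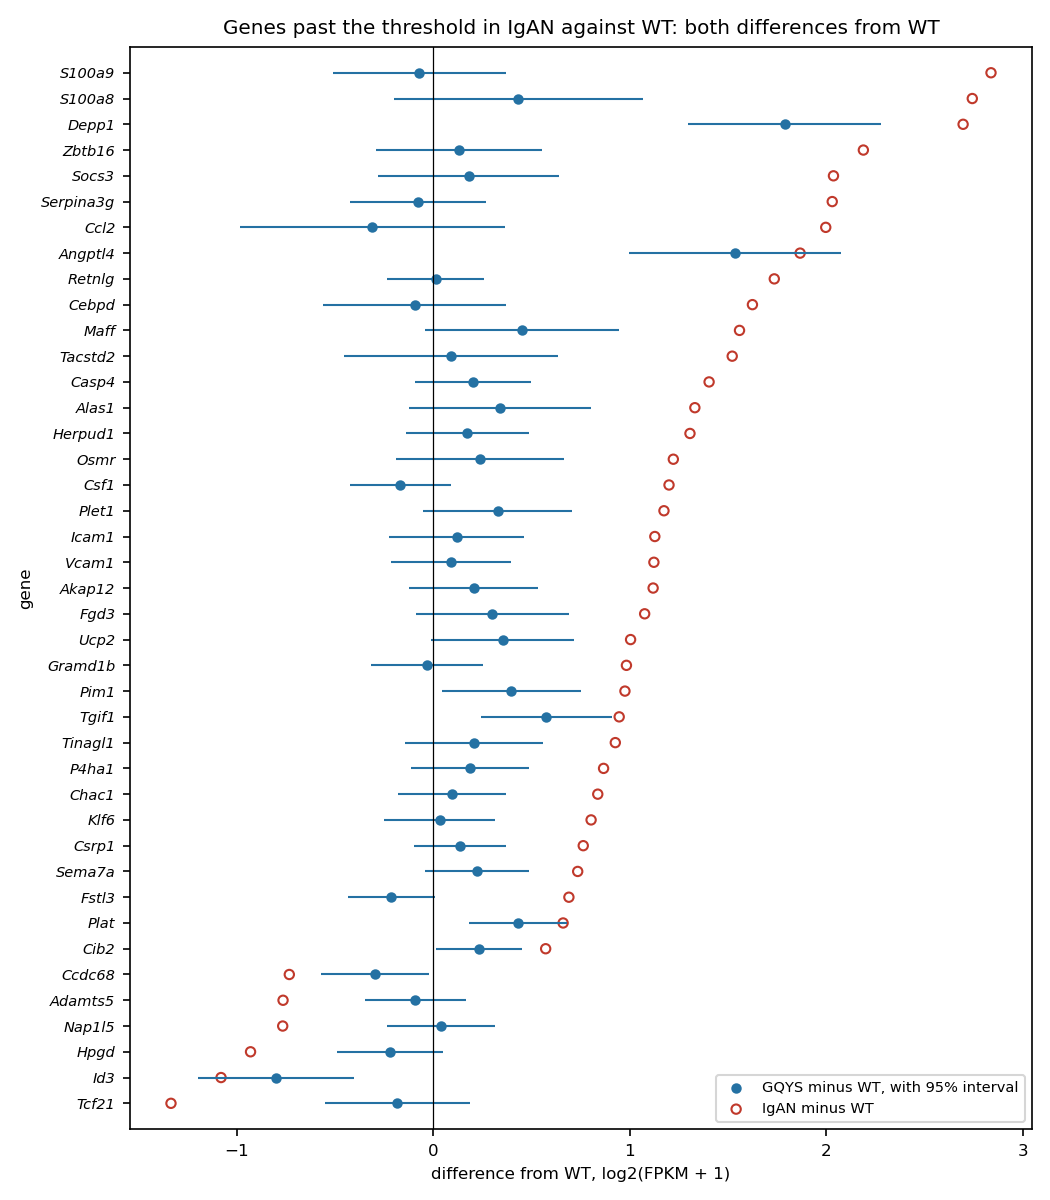
For the 41 genes called in IgAN against WT, filled points give the log2(FPKM + 1) difference GQYS minus WT with its 95% interval and open circles give IgAN minus WT. Of the intervals, 33 cross 0, among them those of the 6 genes tested only through IgAN. Depp1 and Angptl4 lie farthest to the right in GQYS, at 1.79 and 1.54, and Id3 farthest to the left, at -0.80.

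Gene lists gave the same comparison by cell type and process, and 0 members of any list had an adjusted p below 0.05 in GQYS against WT. With library quality weights, where 53 of all 11617 genes passed, 2 members of the circadian clock list did. So did 1 member each of the glucocorticoid, fatty acid oxidation, cholesterol synthesis, conjugation enzyme and IGF lists. Endothelial markers were the cell type list with the most small p-values. All 20 tested endothelial genes had a log2 difference above 0, where 59.3% of all genes did, and their median was 0.25, against 0.03 over all genes and 0.04 in IgAN against WT. Their summed level was 236 to 264 FPKM in WT, 233 to 273 FPKM in IgAN and 296 to 314 FPKM in GQYS. Of the 20, 6 were at an unadjusted p below 0.05, where 4.43% of all genes were, and 11 had GQYS values above all WT values, where 7.14% of all genes did. Plvap, the diaphragm protein of fenestrated capillaries, was at 53.2, 56.6 and 46.9 FPKM in WT and at 70.4, 62.7 and 67.6 FPKM in GQYS, with IgAN at 45.6 to 61.0 FPKM. Its log2 difference from WT was 0.35 (95% interval 0.07 to 0.63, limma adjusted p = 0.999).

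Further endothelial genes were close to Plvap in size. Ehd3, a marker of glomerular endothelium, was at 10.1, 10.4 and 9.48 FPKM in WT and at 14.4, 11.6 and 12.7 FPKM in GQYS. Eng, a co-receptor for BMP ligands, was at 29.1, 29.9 and 26.7 FPKM in WT and at 40.2, 31.6 and 36.1 FPKM in GQYS. Robo4 (0.33), Esam (0.27) and Icam2 (0.26) were the other endothelial genes at an unadjusted p below 0.05, whereas Pecam1 (0.20) and Kdr (0.39) had overlapping groups. The number at an unadjusted p below 0.05 was 9 without WT replicate 1, where 18 of the genes lay above 0. Without that library 549 of all 11617 genes were higher at this level, against 387 with all libraries. The endothelial number was 3 under median-of-ratios scaling (292 of all genes higher) and 0 without GQYS replicate 1 (251 of all genes). Without WT replicates 1 and 3 the endothelial median was 0.18. The endothelial genes share cells, so their values are not independent of each other.

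Other resident cells were described in the same way. The median over 18 tested podocyte genes was 0.15, and 0.05 without WT replicate 1. Of 14 mesangial and pericyte genes, 2 were higher at an unadjusted p below 0.05, as were 3.33% of all genes. They were Pdgfra (0.41) and the angiotensin receptor Agtr1a (0.29). The median of the 14 was 0.11, and the count was 0 without WT replicate 3 and 0 without GQYS replicate 1. The tubule segments had medians of 0.00 for 23 proximal, 0.02 for 14 loop of Henle, 0.10 for 14 distal, -0.06 for 13 principal cell and 0.07 for 14 intercalated cell genes. These were -0.12, -0.13, -0.06, -0.13 and 0.05, in the same order, without WT replicate 1. With all libraries, 1 proximal and 1 loop of Henle gene were lower at an unadjusted p below 0.05, as were 1.1% of all genes. Erythroid genes had a median of 0.28 over 8 genes, which was -0.02 without GQYS replicate 2, 0.07 without WT replicate 3 and 0.52 without WT replicate 1, with 0 at an unadjusted p below 0.05 and sums that overlapped, from 429 to 893 FPKM in WT and from 531 to 1115 FPKM in GQYS.

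Markers of neighbouring tissue had overlapping sums in the 2 groups. Of 14 adipocyte markers, 3 were tested and the sum was 81.6 to 141 FPKM in WT and 80.9 to 110 FPKM in GQYS. Urothelial markers summed to 40.9 to 63.4 FPKM in WT and 39.4 to 48.6 FPKM in GQYS, and skeletal muscle markers to 1.28 to 1.43 FPKM and 1.06 to 1.72 FPKM.

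Lists of inflammation and injury had medians near 0 in GQYS. Their tested members can include genes that reached 1 FPKM in 3 libraries only through IgAN. The pseudocount pulls the GQYS differences of such genes toward 0. The medians and counts therefore do not measure how near these lists lie to WT, and the same holds for the immune and stress lists that follow. Genes of cytokine and NF-kB signalling had 0 of 20 at an unadjusted p below 0.05 (limma), with a median of 0.04 in GQYS and 0.60 in IgAN against WT, and a sum of 132 to 153 FPKM in WT and 142 to 155 FPKM in GQYS against 197 to 269 FPKM in IgAN. Neutrophil markers, of which 3 of 15 could be tested, summed to 1.48 to 3.87 FPKM in WT, 2.58 to 3.94 FPKM in GQYS and 27.9 to 36.2 FPKM in IgAN. Among these 3 is Retnlg, which was tested only through IgAN. Tubular injury genes had a median of 0.02 over 20 genes (0.76 in IgAN). Of them 1, Ccn1, was lower at an unadjusted p below 0.05, as were 1.1% of all genes. Ccn1, a matricellular early response gene, was at 78.6, 25.4 and 21.5 FPKM in WT and at 15.4, 13.7 and 13.9 FPKM in GQYS, and its log2 difference of -1.24 was -0.67 without WT replicate 1. Matrix and fibrosis genes had a median of 0.06 over 33 genes (0.35 in IgAN). At an unadjusted p below 0.05, 1 was higher, as were 3.33% of all genes: Col4a1, a basement membrane collagen. It was at 27.5, 32.2 and 35.7 FPKM in WT and at 38.0, 39.9 and 40.1 FPKM in GQYS, with IgAN at 41.2 to 54.7 FPKM.

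Immune lists beyond these had medians from -0.04 to 0.12 in GQYS, and not all had a much higher median in IgAN. Acute phase genes had a median of 0.07 over 15 genes (0.73 in IgAN) with 1 at an unadjusted p below 0.05, the fibrinogen gene Fgb (0.58). Complement genes had 0.02 over 16 genes (0.17 in IgAN) with 1, C1ra (0.27). Both Fgb and C1ra were higher in GQYS, as were 3.33% of all genes at that level. Interferon response genes had 0.12 over 24 genes (0.14 in IgAN) with 0. Of these 24, 21 were above 0, where 59.3% of all genes were. MHC class II genes had 0.06 over 9 genes (0.10 in IgAN) with 0, and macrophage genes -0.04 over 18 genes (0.24 in IgAN) with 0. Leaving out 1 WT or GQYS library in turn moved the median of the cytokine and NF-kB list between -0.03 and 0.12, and that of the interferon list between 0.07 and 0.22.

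Stress genes held both higher and lower values. Endoplasmic reticulum stress genes, which the unfolded protein response switches on, had 4 of 22 higher at an unadjusted p below 0.05, as were 3.33% of all genes, and a median of 0.20 in GQYS and 0.79 in IgAN. Hspa5, the chaperone BiP, was at 268, 201 and 291 FPKM in WT, at 469, 529 and 459 FPKM in IgAN and at 426, 297 and 299 FPKM in GQYS. The GQYS values lay between the other groups, and 2 of the 3 were within 10 FPKM of the highest WT library. Sesn2, an ATF4 and p53 target that restrains mTORC1, was at 6.78, 13.3 and 14.2 FPKM in WT and at 27.1, 15.3 and 23.8 FPKM in GQYS (log2 difference 0.92, and 0.61 without WT replicate 1). The other two were Creld2 (0.59) and Hsp90b1 (0.23). Without WT replicate 2 the counts of this list were 1 higher and 2 lower, against 434 and 108 of all 11617 genes.

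Heat shock genes had a median of 0.12 over 21 genes in GQYS and 0.67 in IgAN, yet 4 of them had lower values at an unadjusted p below 0.05, as did 1.1% of all genes. Hspa1b, an inducible HSP70 with the near-identical copy Hspa1a, was at 85.5, 6.42 and 30.5 FPKM in WT and at 6.43, 7.92 and 7.78 FPKM in GQYS, against 99.5 to 105 FPKM in IgAN. Its low values in GQYS are those of WT replicate 2, and its log2 difference of -1.71 was -0.87 without WT replicate 1 and 0.17 without WT replicates 1 and 3. Dnajb4 was at 7.82, 5.18 and 7.31 FPKM in WT and at 4.30, 4.83 and 4.23 FPKM in GQYS, and Dnajb1 overlapped between the groups. Without WT replicate 1 the list had 3 higher and 1 lower gene, against 549 and 532 of all 11617 genes.

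Several immediate-early genes were highest in WT replicate 1. Of 20 tested, 2 (Ier3 and Btg2) had lower values at an unadjusted p below 0.05, as did 1.1% of all genes. The median was -0.19, which turned to 0.13 without WT replicate 1. Ier3 was at 54.8, 24.1 and 28.7 FPKM in WT and at 18.4, 20 and 21.3 FPKM in GQYS. Egr1 was at 71.0 FPKM in WT replicate 1 and between 1.22 and 5.84 FPKM in the other 5 libraries of the comparison. Among glucocorticoid targets, the median was -0.06 over 20 genes (0.56 in IgAN). At an unadjusted p below 0.05, 1 was higher and 2 lower, where 3.33% of all genes were higher and 1.1% lower. The list includes Angptl4, described above, which was higher in GQYS (log2 difference 1.54). Tsc22d3, the leucine zipper protein GILZ, was at 14.0, 10 and 12.0 FPKM in WT, at 19.4, 16.6 and 14.6 FPKM in IgAN and at 8.96, 8.57 and 8.31 FPKM in GQYS. GQYS was thus below WT (log2 difference -0.43, limma adjusted p = 0.928) and below IgAN (-0.88, adjusted p = 0.0467). Pck1, an enzyme of gluconeogenesis, was at 1104, 720 and 1131 FPKM in WT and at 689, 391 and 810 FPKM in GQYS, with overlap. Its log2 difference was -0.68 (limma adjusted p = 0.999), and -0.58 without WT replicate 1.

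Metabolic and detoxifying genes of the tubule had medians from -0.09 to 0.05, which were 0.01 for 29 cytochrome P450 genes, 0.00 for 33 conjugation enzymes, -0.05 for 31 organic ion and drug transporters, 0.00 for 40 nuclear genes of oxidative phosphorylation, 0.05 for 23 genes of glycolysis and gluconeogenesis and -0.09 for 24 genes of cholesterol synthesis. At an unadjusted p below 0.05, the last 2 lists each had 1 gene lower, as were 1.1% of all genes. The transporters had 1 gene higher, as were 3.33% of all genes. Without WT replicate 1 the median of cholesterol synthesis was -0.27, with 4 of 24 above 0. Then 5 of these genes were lower at an unadjusted p below 0.05, as were 532 of all 11617 genes. The other medians were then -0.08 for cytochrome P450 genes, -0.07 for conjugation enzymes, -0.13 for transporters, 0.13 for oxidative phosphorylation and -0.07 for glycolysis and gluconeogenesis. Cytochrome P450 genes at an unadjusted p below 0.05 were 4, all higher, as were 3.33% of all genes: Cyp4a14, Cyp4a12b (0.57), Cyp1b1 (0.42) and Cyp2d22 (0.30). Conjugation enzymes at that level were 3, all lower, as were 1.1% of all genes: Ugt8a (-0.54), Gstm1 (-0.34) and Ugt2b38 (-0.30), the last of which belongs to a family with closely similar members. Each of the 2 lists had 3 higher and 3 lower without WT replicate 1, against 549 and 532 of all 11617 genes. Ribosomal protein genes had 0 of 49 at that level, with 47 above 0 and a median of 0.10. That median was 0.23 without WT replicate 1 and 0.02 without WT replicate 3. Without WT replicate 1, 15 of the 49 were higher at an unadjusted p below 0.05, as were 549 of all 11617 genes. The lists of fibroblasts, smooth muscle, oxidative stress, the renin-angiotensin system, apoptosis and p53, proliferation, hypoxia and mitochondrially encoded genes had medians from -0.05 to 0.06. The mitochondrially encoded median of -0.02 was 0.35 without WT replicate 1, with 12 of 13 genes above 0, and -0.29 without WT replicate 3. Without WT replicate 1 the other medians were 0.08 for fibroblasts, 0.09 for smooth muscle, -0.03 for oxidative stress, -0.11 for the renin-angiotensin system, -0.03 for apoptosis and p53, -0.14 for proliferation and -0.04 for hypoxia. T and NK cell and adrenal cortex markers had 2 tested genes each, with 0 at an unadjusted p below 0.05 (limma).

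**Figure D5:**
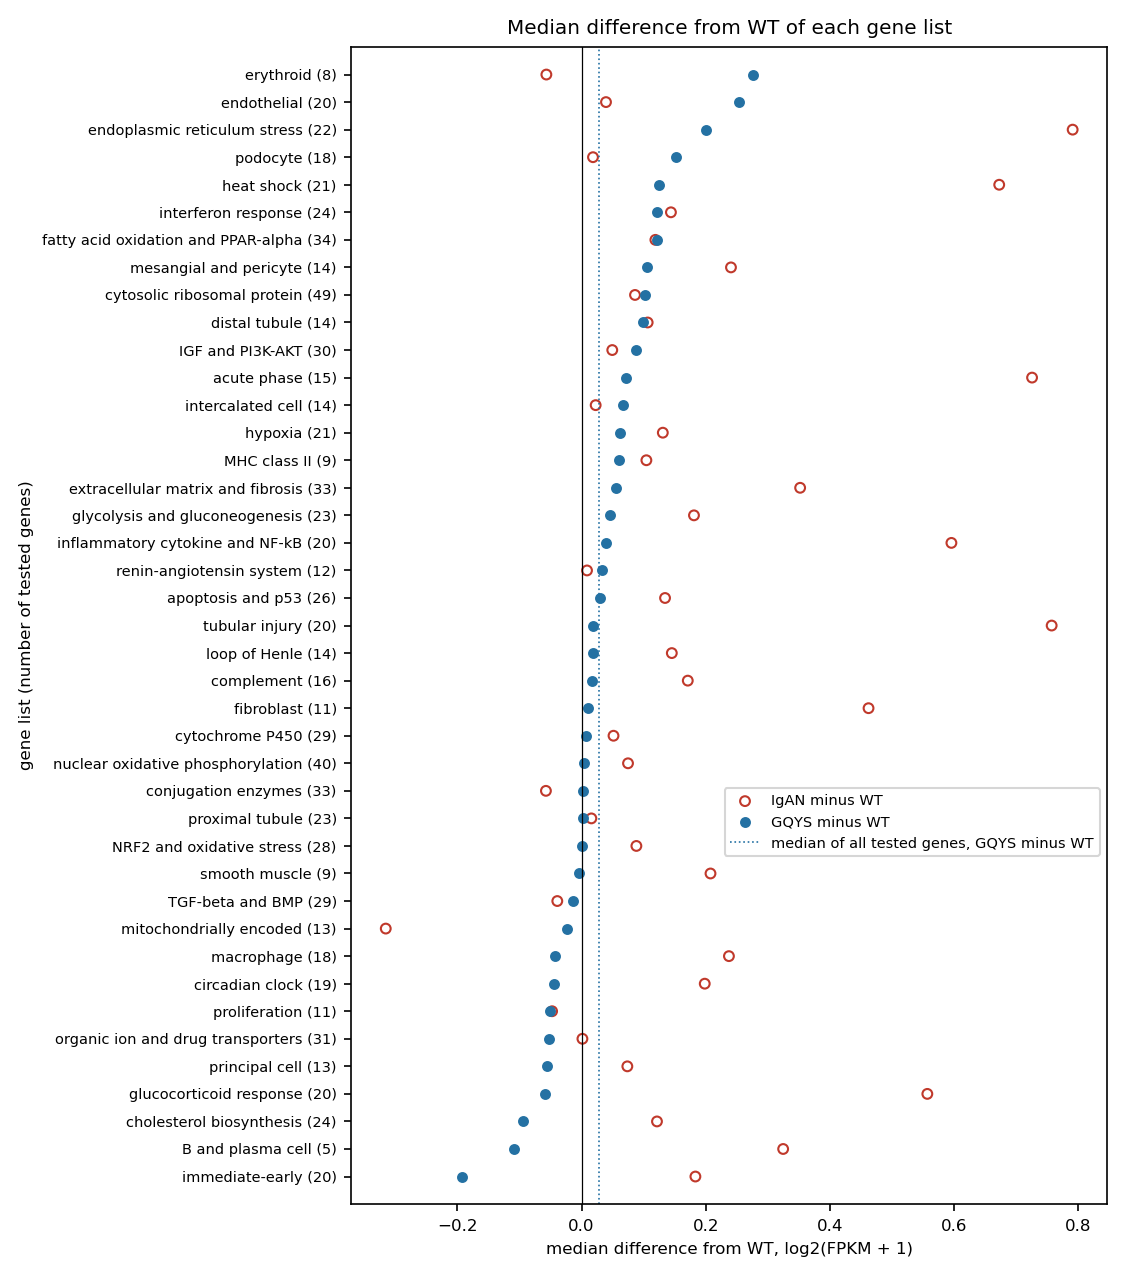
Filled points give the median log2(FPKM + 1) difference GQYS minus WT and open circles IgAN minus WT for each of the 41 gene lists with at least 5 tested genes, ordered by the GQYS value, and the dotted line marks the median of all tested genes at 0.03. Endothelial genes lie at 0.25 in GQYS and 0.04 in IgAN, while endoplasmic reticulum stress, tubular injury, acute phase and cytokine genes lie between 0.60 and 0.79 in IgAN and at or below 0.20 in GQYS. The lists can include genes tested only through IgAN, whose GQYS differences the pseudocount pulls toward 0.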

How the data were processed

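Per the labels' protocols, TRIzol was used to extract kidney RNA and a VAHTS Universal V6 kit to make the libraries. FPKM values of 26139 genes in 9 libraries were deposited by the authors, scaled to gene length and library total. Tools listed in the submitters' processing notes are HISAT2, HTSeq, fastp, DESeq2 and R 3.2.0, with the build GRCm39. Annotation and strand setting were not given in the sources used here. Overlapping antisense genes therefore cannot be told apart. Differences of a few abundant genes can shift all other FPKM values of a library.

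Genes with at least 1 FPKM in at least 3 libraries were tested with limma 3.58.1 (R 4.3.3) on log2(FPKM + 1), in 1 linear model over all 9 libraries with a mean-variance trend, with Benjamini-Hochberg adjustment over 11617 genes and a threshold of 0.05. The FPKM steps gave whole reads for all 26139 genes within a tolerance of 0.03 reads, and voom on these reads was added after seeing the data. For genes seen in 1 or 2 libraries such a match can arise easily. Identical library columns numbered 0, and the chi-square per gene between replicates of a group was 17.7 to 189. The model was tested on simulated data.

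Named genes were, per direction, the 10 with the smallest p and non-overlapping ranges, the 10 with the smallest p in IgAN against WT, and from each list up to 3 tested members by p. Predicted and clone-named genes were counted only. A few genes that the rules select are not reported here. Further list members at an unadjusted p below 0.05 and other named genes were picked with their values in view. The comparison, the 47 lists (987 genes, 803 tested) and the rules were chosen with earlier results of these data known, so list counts are descriptions. Alternatives covered the pseudocount, filter, scaling, replicate block, libraries in the fit, quality weights, variance prior, mitochondrial share and each library left out. Promoters came from RefSeq on GRCm38.p6, matched by symbol, while the files use GRCm39, so no other coordinates are given. Figures were drawn in Python 3.11.15 (matplotlib 3.10.9).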

Additional observations from a re-analysis of the deposited data

How the results depend on the processing

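In GQYS against WT, 0 genes passed the threshold with all 9 libraries and under pseudocounts of 0.1 and 5, other filters, quantile and median-of-ratios scaling, a fit on the GQYS and WT libraries alone, no variance trend, the mitochondrial share as a covariate, voom on recovered reads, and without WT and IgAN replicate 1 or WT replicates 1 and 3 together (the voom fit and the last were chosen after seeing the data). Leaving out 1 library in turn gave 0 to 1 genes, the 1 being Depp1 without GQYS replicate 2. Library quality weights called 53 genes, 35 higher and 18 lower, with a weight of 0.171 for WT replicate 1 and 3.2 for WT replicate 2; 12 of the 20 genes in the panels of FPKM by library were among them. The count at an unadjusted p below 0.05, 515 with all libraries, was 348 without GQYS replicate 2, 303 with a filter of 5 FPKM, 1182 of 23797 genes with no filter, 1148 with the mitochondrial covariate, 1536 without WT and IgAN replicate 1 and 2892 with quality weights. Genes with separate ranges, 1132 with all libraries, were 3848 without WT replicate 1, a count that needs only 2 WT libraries. With the replicate block 0 genes passed and 668 were at an unadjusted p below 0.05. The numbers do not pair the samples: deviations of same-numbered WT and GQYS libraries correlated at 0.32, 0.39 and -0.36, and 2 of 6 libraries correlated best with their own number. The Itgam difference of -0.410 FPKM ran from -0.487 to -0.299 with 1 library left out. The sign of the log2 difference changed in 0 of 450 repeats for the 20 genes and in 81 of 3404 for the 150 named genes, and 41 of 941 list medians moved by more than the replicate SD. The cause of these shifts was not tested. With 3 libraries a group, a median interval of 0.32 to either side limits single genes.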

Other observations

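Of the 23 genes with a log2 difference above 1 in size between GQYS and WT, 0 were past the threshold with limma. Some that the text has not yet described are given here and were chosen with their values in view. Clec2h, a C-type lectin gene, was at 26.3, 21.5 and 19.5 FPKM in WT and at 42.9, 59.9 and 37.1 FPKM in GQYS, with IgAN spread from 14.1 to 46.5 FPKM. Bcat1, the cytosolic branched-chain aminotransferase, was at 4.93, 6.95 and 2.33 FPKM in WT and at 1.54, 1.19 and 2.24 FPKM in GQYS. Mogat2, a monoacylglycerol acyltransferase of triglyceride synthesis, was at 16.6, 10.5 and 18.3 FPKM in WT and at 6.28, 2.54 and 10.7 FPKM in GQYS, where GQYS replicate 3 overlapped with WT. Nat8f5, an N-acetyltransferase of a family with similar members, was at 84.5, 59.4 and 71.8 FPKM in WT and at 49.0, 16 and 34.1 FPKM in GQYS, and IgAN replicate 3 at 36.3 FPKM lay within the GQYS range. For Gadd45g, a stress-induced growth arrest gene, WT replicate 1 alone stood high, at 94.0 FPKM against 13.0 to 19.5 FPKM in the other 5 libraries.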
